A study of Homo sapiens with 2 samples.

Results

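The genes examined were CTCF and the genes of the cohesin machinery. They were chosen by name: SMC1A, SMC3 and RAD21, which form the cohesin ring, STAG1 and STAG2, the alternative subunits bound to that ring, NIPBL, which loads it onto DNA, WAPL, PDS5A and PDS5B, which act in its release, and CTCF, the DNA-binding protein at which moving cohesin stops. All 10 had a row among the 57736 genes of the tables. Poly(A)+ RNA of HEK293T cells, labelled as wild type and kidney and grown in DMEM with serum, was sequenced in 2 libraries. The study also treated cells of this line with heat shock. Both libraries were listed at the same growth temperature, below that of the heat shock, and their titles name no treatment. HEK293T is an established human line of embryonic kidney origin with the large T antigen of SV40. Both libraries formed 1 group, so genes and replicates were compared and no condition was. The labels do not say that the replicates came from separate cultures, so the spread between them may be technical.

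Cohesin is a ring of an SMC1 and an SMC3 protein closed by RAD21, and it embraces DNA. In interphase it extrudes chromatin loops until it meets CTCF bound in the right orientation. It also holds sister chromatids together from replication until separase cuts RAD21 at anaphase. The rings are loaded by NIPBL with its partner MAU2 and are taken off chromatin by WAPL, which acts together with PDS5 proteins. The study mapped chromosomal contacts of the ribosomal DNA in this line and set them beside public binding profiles of CTCF and RAD21.

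The libraries held 10593491 and 10104118 estimated counts, and the 10 genes had between 888 and 6685 counts each. Counting error alone was therefore 1.22 to 3.36% of a count. Against the tissue label, markers of adult kidney cells were absent or near 0: none of 8 was detected, the highest count was that of CUBN with 6 and 8, and their summed TPM was 0.33 and 0.39. Of 4 markers of blood and liver cells none was detected, with a summed TPM of 0.22 and 0.11, all of it from PTPRC with 1 count in each library. In bulk RNA fewer cells that express a gene and less RNA per cell cannot be told apart.

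Because several members are paralogs, their sequences were compared first, to learn whether a read of 50 nt could belong to more than 1 of them. The longest identical stretch of the STAG1 and STAG2 coding sequences was 21 nt, and that of PDS5A and PDS5B was 20 nt. These stretches are in capitals here, with 15 nt on each side in lower case, to show how little the paralogs share, from the GENCODE transcripts on GRCh37. The STAG1 stretch lies in exon 15 (chr3:136162153-136162203, minus strand) and that of STAG2 in exon 16 (chrX:123195117-123195167, plus strand). Those of PDS5A (chr4:39903982-39904031, minus strand) and PDS5B (chr13:33262642-33262691, plus strand) both lie in exon 13.
STAG1: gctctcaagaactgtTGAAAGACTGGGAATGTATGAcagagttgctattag
STAG2: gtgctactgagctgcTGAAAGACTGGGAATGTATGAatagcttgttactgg
PDS5A: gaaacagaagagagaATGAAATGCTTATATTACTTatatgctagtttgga
PDS5B: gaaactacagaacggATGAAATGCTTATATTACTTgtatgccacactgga

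No word of 50 bases was shared between any of the 10 genes. Against the germline counterparts the longest identical coding stretch was 15 nt for SMC1A with SMC1B, 17 nt for STAG1 with STAG3, 13 nt for STAG2 with STAG3, 15 nt for RAD21 with RAD21L1 and 14 nt for CTCF with CTCFL. The members can thus be told apart from each other and from these relatives by an error-free read of full length.

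Copies and overlapping genes were a different matter. SMC3 shared 335 of its 5633 words (5.95%) with SMC3P1, a processed pseudogene on chromosome 2 from 99718481 to 99719215. The longest identical stretch was 176 nt and runs over exons 27 to 29 of SMC3 (spliced, within chr10:112362703-112364029, plus strand), shown in capitals.
SMC3: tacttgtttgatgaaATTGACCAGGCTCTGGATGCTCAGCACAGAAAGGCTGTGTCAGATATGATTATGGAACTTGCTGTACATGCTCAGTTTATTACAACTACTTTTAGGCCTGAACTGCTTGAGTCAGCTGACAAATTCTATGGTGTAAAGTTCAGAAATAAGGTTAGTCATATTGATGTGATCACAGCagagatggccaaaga

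SMC3P1 was given 10.6 and 9.77 counts, with a posterior SD of 2.78 and 3.01 counts. The posterior SD is the uncertainty that sharing of reads between genes leaves in a count, and that of SMC3 was the same 2.78 and 3.01 counts on 2386 and 2290. RAD21 has a processed pseudogene too, RAD21P1, with which it shared 79 of 8813 words, and RAD21P1 had 0 counts in both replicates.

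The largest overlap was that of STAG1, of which 1612 of 8073 words lie in exons of PCCB, a propionyl-CoA carboxylase gene on the opposite strand. The exons overlap over 1661 nt at the 3′ end of STAG1 (chr3:136055078-136056738). PCCB had 597 and 584 counts and STAG1 had 934 and 888, with a posterior SD for STAG1 of 6.12 and 5.51. On the opposite strand RAD21 overlapped UTP23 over 576 nt (242 and 305 counts), STAG2 overlapped TENM1 over 241 nt (534 and 571 counts), and SMC1A overlapped RIBC1 over 39 nt (21 and 18 counts). RAD21 also overlapped RAD21-AS1 over 271 nt (3.19 and 5.46 counts). It shared 175 words with RAD21-AS1 and 98 with UTP23. CTCF overlapped the lncRNA ENSG00000237718 over 1326 nt, and that gene had 3 and 8 counts. Exon overlaps were taken over all annotated transcripts, while words came only from transcripts listed with the deposited values. An overlap can therefore lie in exons that were not quantified, and that of CTCF left few shared words. No source used here says whether strand was used in counting. The words that STAG1 shared were all in PCCB, on the other strand, and its posterior SD was above 0. STAG2 and TENM1 had the fractional counts 3311.52 and 534.48 in replicate 1. In the words that STAG1, STAG2 and RAD21 share with PCCB, TENM1 and UTP23, reads of either gene cannot be told apart by sequence alone. CTCF shared 6 of its 4153 words with other genes and SMC1A shared 0, and the posterior SD of both was 0. The posterior SD was above 0 for 5 of the 10 genes, against 58.3% of detected protein-coding genes, and it reached at most 0.656% of a count, in STAG1.

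The levels of the members were examined next. All 10 were detected, with at least 1 TPM (the share of all transcripts, corrected for length) in both replicates, against 27.7% of all genes and 63.7% of protein-coding genes. Their median of the mean TPM was 57.6, against 21.2 over the 12345 detected protein-coding genes, and each of the 10 lay above that median. The highest was 11.6-fold above the lowest, and 4.65-fold without SMC1A.

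Of the ring subunits SMC1A, an ATPase that pairs with SMC3 through its hinge, was the highest member (ENSG00000072501, chrX:53401070-53449677). It had a TPM of 339 in replicate 1 and 289 in replicate 2, 314 ± 35.6 (SD, n = 2), above 97.6% of the detected protein-coding genes. Its partner SMC3 (ENSG00000108055, chr10:112327442-112365806) had a TPM of 79.2 and 78.4, 78.8 ± 0.537 (SD, n = 2), the closest pair of values relative to their mean among the 10. RAD21, the subunit that closes the ring and is cut by separase (ENSG00000164754, chr8:117858173-117887015), had 87.4 and 103, 94.97 ± 10.7 (SD, n = 2). The ring subunits were thus 3 of the 4 highest members, and SMC1A stood apart from the other two in both replicates.

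STAG2 (ENSG00000101972, chrX:123094062-123556514) is the subunit present in most cohesin of dividing somatic cells. It was second, with a TPM of 131 and 121, 126 ± 7.01 (SD, n = 2). STAG1 (ENSG00000118007, chr3:136055078-136471245), which serves the same position in the ring, was last with 25.4 and 28.9, 27.2 ± 2.51 (SD, n = 2). STAG1 still lay above 57.5% of detected protein-coding genes. The 2 highest members in TPM, SMC1A and STAG2, are also the only X-linked ones of the 10. In counts per kilobase of coding sequence, given below, RAD21 on chromosome 8 lay above STAG2.

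NIPBL (ENSG00000164190, chr5:36876871-37066515), the loader and an activator of the cohesin ATPase, had a TPM of 33.7 and 35.6, 34.7 ± 1.32 (SD, n = 2). WAPL, which opens the ring (ENSG00000062650, chr10:88195013-88281549), had 37.8 and 37.3, 37.5 ± 0.361 (SD, n = 2). The loader and the release factor were neighbours in the order, at 1.08-fold. PDS5A (ENSG00000121892, chr4:39824483-39979576) had 63.7 and 57.0, 60.3 ± 4.74 (SD, n = 2). Its paralog PDS5B (ENSG00000083642, chr13:33160589-33352157) had 47.3 and 49.6, 48.4 ± 1.63 (SD, n = 2). CTCF (ENSG00000102974, chr16:67596370-67673080), a zinc finger protein, lay between them with 54.2 and 55.5, 54.8 ± 0.912 (SD, n = 2), at 0.580 ± 0.0561 of RAD21 (SD, n = 2).

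**Figure D1:**
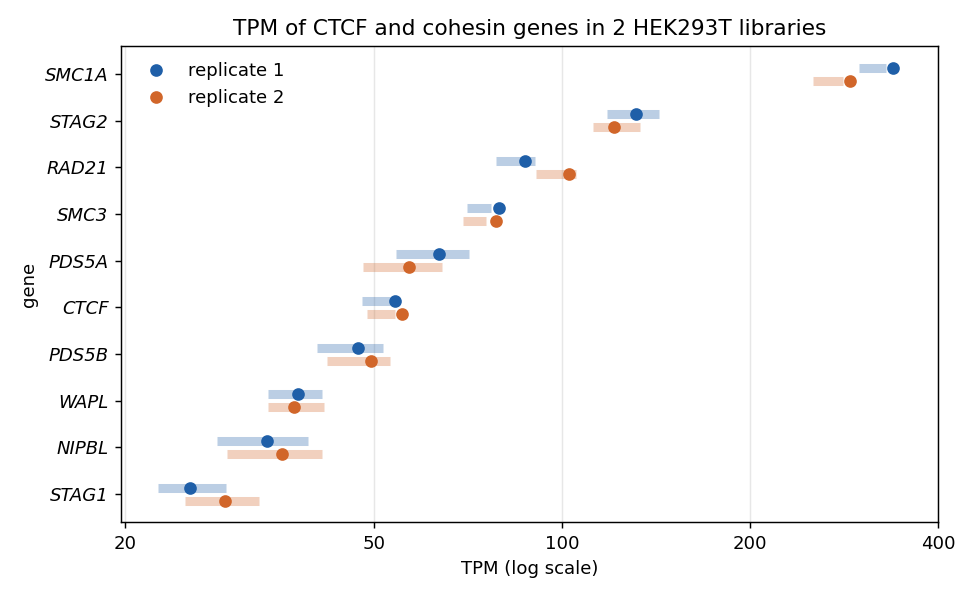
TPM on a log axis for each of the 10 genes (rows, ordered by mean), with a point for each replicate and a bar for the deposited interval of the posterior mean TPM. SMC1A lies apart at 339 and 289, STAG1 is lowest at 25.4 and 28.9, and the points of SMC1A, SMC3 and CTCF sit above their bars.

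In the order of mean TPM, SMC1A, STAG2, RAD21, SMC3, PDS5A, CTCF, PDS5B, WAPL, NIPBL and STAG1, the replicate values of neighbours did not overlap in any of the 9 steps. With 2 values against 2 an exact permutation test cannot go below a p of 0.333, so no step was tested. The interval that RSEM attaches to the posterior mean TPM also covers the division of reads among isoforms. These intervals were apart in both replicates in 3 steps only, from SMC1A to STAG2, from STAG2 to RAD21 and from RAD21 to SMC3. From SMC3 downwards the intervals of neighbours overlapped in at least 1 replicate. The intervals of WAPL ran from 33.8 to 41.3 and from 33.9 to 41.6, and those of NIPBL from 28.1 to 39.2 and from 29.2 to 41.3. For SMC1A, SMC3 and CTCF the TPM lay above its interval in both replicates. The interval belongs to the posterior mean and not to the TPM itself, so a TPM can lie outside it. Why it did so for these 3 genes was not tested. The posterior means of SMC1A were 314 and 267, those of SMC3 73.6 and 72.7, and those of CTCF 50.5 and 51.4. No source used here states the level of these intervals.

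A TPM divides a count by a length that is itself an estimate, the mean length of the gene's transcripts weighted by their estimated shares, and this length was read for each member. For SMC1A it was 2691 nt in replicate 1 and 2955 nt in replicate 2, which is 72.7% and 79.9% of the 3699 nt of its longest annotated coding sequence. Of the 6 SMC1A transcripts listed in the tables, 5 were matched to the annotation, with lengths of 9930, 9710, 880, 847 and 838 nt. The estimate thus lay between the 2 long and the 3 short ones. For PDS5B the estimate was 2882 and 2938 nt against a coding sequence of 4341 nt (66.4% and 67.7%). For NIPBL it was 6989 and 6633 nt against 8412 nt (83.1% and 78.8%). STAG2 was below its coding length in replicate 1 only, with 90.2% and 103%. These 3 of 10 genes that were below in both replicates compare with 18% of 12283 detected protein-coding genes.

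**Figure D2:**
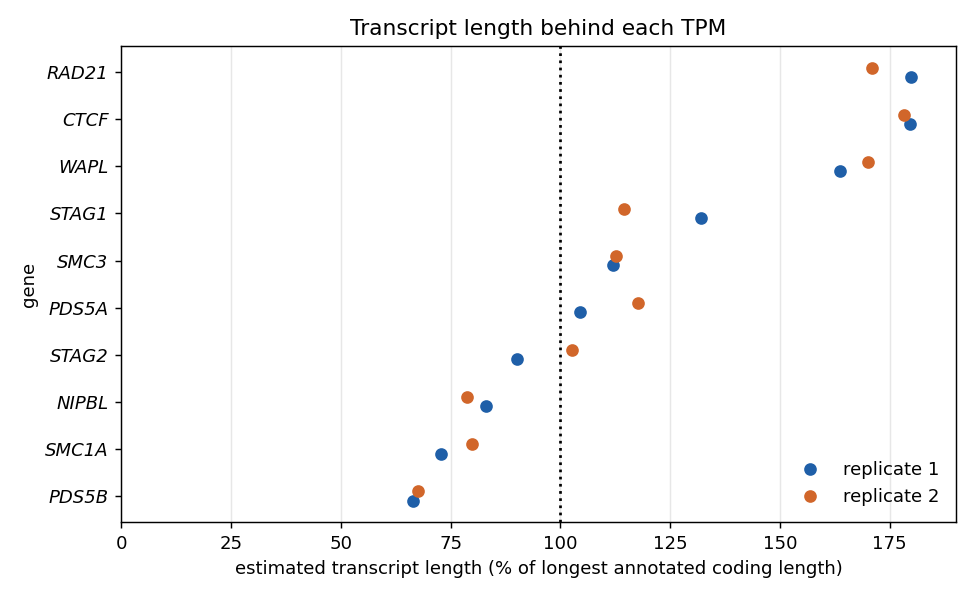
Estimated transcript length as a percentage of the longest annotated coding length (dotted line, 100%) for each gene and replicate. PDS5B, SMC1A and NIPBL lie left of the line in both replicates, and RAD21 and CTCF lie farthest right, between 171% and 180%.

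The order was therefore also read as CPM (counts scaled to the library total) per kilobase of the longest coding sequence, a scale chosen after the data were seen. The counts still include reads outside the coding sequence, so this scale raises genes with long untranslated parts. On this scale SMC1A was again the highest at 166 ± 6.57 (SD, n = 2), above 93.3% of detected protein-coding genes. RAD21 followed with 116 ± 9.68, then STAG2 with 84.8 ± 3.67 and CTCF with 68.5 ± 1.23 (SD, n = 2). SMC3 was next with 61.9 ± 0.269, and PDS5A and WAPL followed with 46.8 ± 0.621 and 43.9 ± 1.07 (SD, n = 2). The lowest were STAG1 with 23.3 ± 0.0448, PDS5B with 22.6 ± 1.23 and NIPBL with 19.7 ± 0.147 (SD, n = 2). The replicate values of STAG1 (23.4 and 23.3) fell inside those of PDS5B (21.7 and 23.5), so these neighbours did not differ beyond their spread. NIPBL, at 46.1% of detected protein-coding genes, was the only member below their median on this scale.

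The balance between partners was taken as the ratio within each replicate, with 2 values for each and no test. SMC1A was 4.28 and 3.68 times SMC3 in TPM, 3.98 ± 0.425 (SD, n = 2). Their coding lengths are nearly the same (3699 and 3651 nt), while their longest transcripts are not. Per kilobase of coding sequence the ratio was 2.68 ± 0.118 (SD, n = 2). Divided by the longest annotated transcript, 9930 nt for SMC1A and 5522 nt for SMC3, it was 1.51 ± 0.0664 (SD, n = 2). SMC1A was above SMC3 on each of these scales and in counts. RAD21 was 1.21 ± 0.145 times SMC3 in TPM and 1.87 ± 0.148 times per coding kilobase, and 0.982 ± 0.0777 times per longest transcript (SD, n = 2). The longest RAD21 transcript, 5460 nt, is a retained-intron form without a coding sequence, and its longest protein-coding transcript is 3660 nt. The last ratio therefore rests on a noncoding length for RAD21.

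STAG2 exceeded STAG1 5.17-fold and 4.19-fold in TPM, 4.68 ± 0.691 (SD, n = 2), and 3.64 ± 0.164 times per coding kilobase (SD, n = 2). In estimated counts STAG2 made up 78.0% of the pair in replicate 1 (95% Wilson interval 76.7 to 79.2) and 79.1% in replicate 2 (77.8 to 80.3). Such intervals hold for counting error alone, as PCR copies of a molecule are not separate observations. The summed TPM of the pair was 157 and 150. Of the ring subunits SMC3 had 79.2 and 78.4, RAD21 87.4 and 103, and SMC1A 339 and 289, so the sum lay below SMC1A and above the others.

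PDS5A was above PDS5B in both replicates, 1.35-fold and 1.15-fold in TPM, 1.25 ± 0.140 (SD, n = 2). The deposited intervals of the pair were apart in replicate 1. In replicate 2 they overlapped, at 48.0 to 64.4 for PDS5A and 42.1 to 53.0 for PDS5B. Per coding kilobase the ratio was 2.07 ± 0.0852 (SD, n = 2), and PDS5A held 66.3% (64.6 to 68.0) and 65.0% (63.3 to 66.7) of the counts of the pair. STAG2 and PDS5A were thus the more abundant paralogs on each scale.

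The loader NIPBL was 0.748 and 0.795 of its partner MAU2 in TPM, 0.771 ± 0.0330 (SD, n = 2), and 0.367 ± 0.0143 per coding kilobase, while in counts it was 1.68 ± 0.0654 times MAU2 (SD, n = 2). NIPBL was 0.925 ± 0.0441 of WAPL in TPM, 0.449 ± 0.00755 per coding kilobase and 1.06 ± 0.0178 in counts (SD, n = 2). NIPBL has by far the longest coding sequence of the members, 8412 nt, and it was below WAPL in TPM and per coding kilobase and above it in counts.

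**Figure D3:**
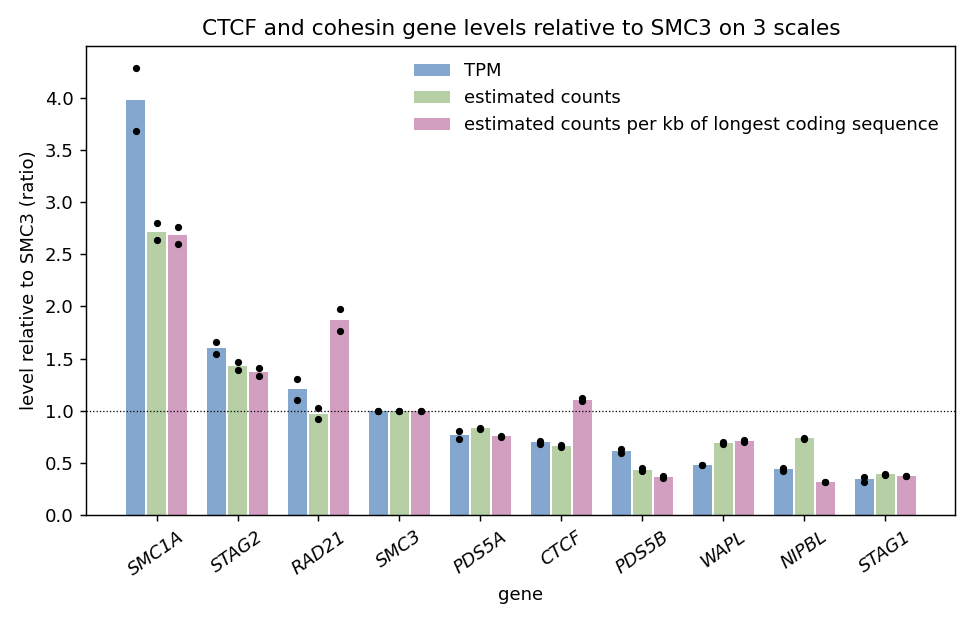
Level of each gene divided by that of SMC3 in the same replicate, in TPM, in estimated counts and in counts per kilobase of coding sequence. Bars are means of the 2 replicates and points the replicates. SMC1A is 3.98, 2.72 and 2.68 times SMC3 on these scales, and RAD21 rises from 0.971 in counts to 1.87 per coding kilobase.

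The replicates were compared for each member to learn how stable a value is. A two-sided exact binomial test of the counts, with Benjamini-Hochberg adjustment over 17920 genes, was used to see which genes differed between the libraries beyond read sampling. The test is on these libraries and not on conditions. It called 1 of the 10 genes, against 3.87% of all genes tested, 3.23% of detected protein-coding genes and 6.74% of the 4823 genes with at least 1000 summed counts. That gene was RAD21, with 2188 counts in replicate 1 and 2349 in the smaller replicate 2, a difference of 0.18 (log2, scaled counts) and an adjusted p of 0.00189 by the exact binomial test. UTP23, which overlaps RAD21, had 242 and 305 counts, and its part in this difference was not tested. SMC1A (6685 and 6029 counts) and STAG2 (3312 and 3358) had adjusted p-values of 0.0972 and 0.108 by the exact binomial test, with differences of -0.07 and 0.10 on the log2 scale. With library sizes taken as total counts SMC1A passed as well, at an adjusted p of 0.0438 by the exact test. The other 7 genes lay between 0.01 and 0.12 on the log2 scale with adjusted p-values of at least 0.414 by the exact binomial test.

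In TPM the replicates differed in other ways, since the estimated length moved too. For STAG1 the scaled count changed by 0.01 on the log2 scale, while the effective length, the length in which a read can start, fell by 0.21 and the TPM rose by 0.19. For PDS5A the scaled count was 0.04 higher in replicate 2, the effective length 0.17 higher and the TPM changed by -0.16. STAG2 had a scaled count 0.10 higher and a TPM changed by -0.11 on the log2 scale. The largest TPM changes were -0.23 in SMC1A and 0.23 in RAD21. Their scaled counts changed by -0.07 and 0.18 and their effective lengths by 0.14 and -0.07. The effective length moved more than the scaled count in 5 of 10 genes, against 44.2% of detected protein-coding genes, and TPM and scaled count moved in opposite directions in 4 of 10, against 24.8%. The median absolute difference over the 10 genes was 0.05 in scaled counts, 0.08 in effective length and 0.10 in TPM (log2), against 0.10, 0.08 and 0.14 over detected protein-coding genes. The spread of STAG1, PDS5A and SMC1A in TPM was thus larger than that of their scaled counts.

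**Figure D4:**
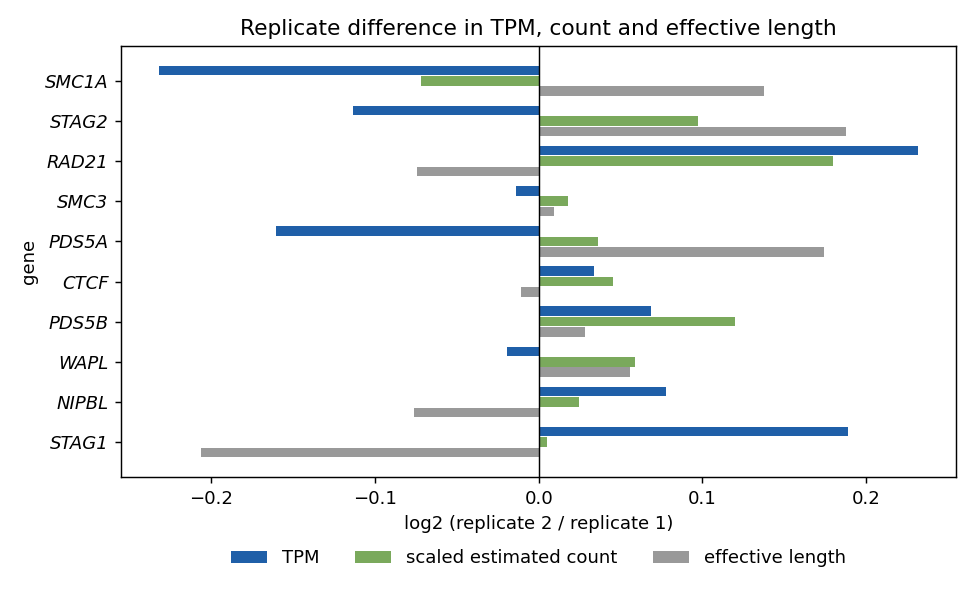
Difference of replicate 2 from replicate 1 on the log2 scale for TPM, scaled estimated count and effective length of each gene. Only RAD21 has a count difference near 0.2, and the TPM bars run opposite to the length bars in every gene but PDS5B.

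Genes that act with cohesin, as a list of 21 that are not members, were read in the same way, and 18 were detected. All 8 genes of the cohesin cycle were. PTTG1, securin, which holds separase inactive, was highest with a TPM of 133 and 158, followed by CDCA5, sororin, which protects cohesion from WAPL, with 71.8 and 78.6. ESPL1, separase itself, had 50.5 and 43.0, and MAU2 had 45.1 and 44.8. HDAC8, the deacetylase of SMC3, had 45.4 and 42.8, and SGO1, the shugoshin that shields centromeric cohesin, had 43.3 and 41.2. The acetyltransferases of SMC3 were lowest in TPM, ESCO1 with 24.4 and 25.03 and ESCO2 with 19.7 and 24.8. Per coding kilobase ESCO2 was again lowest at 16.0, but ESPL1 at 22.7 lay below ESCO1 at 30.6. On that scale CDCA5 and PTTG1 were level, at 112 ± 3.61 and 111 ± 9.79 (SD, n = 2). ESCO2 was the gene of this group called by the binomial test, with 263 and 332 counts, a difference of 0.41 (log2) and an adjusted p of 0.0201 by the exact test.

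Of the 5 germline counterparts 3 were not detected. SMC1B had 4 and 5 counts, RAD21L1 3 and 0, and CTCFL, the testis paralog of CTCF also called BORIS, 5 and 2. The 0 of RAD21L1 in replicate 2 is compatible with as many as 3 counts, or 0.297 CPM. STAG3 had a TPM of 7.23 and 5.29 and REC8, the meiotic counterpart of RAD21, 7.23 and 4.23, with posterior SDs of 4.13 and 3.90 on the 97.5 and 74.8 counts of STAG3. Both were below each of the 10 members in TPM.

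The SMC proteins of other complexes were all detected. SMC4 of condensin had a TPM of 205 and 262 and its partner SMC2 had 45.8 and 48.1, a ratio of 4.96 ± 0.691 (SD, n = 2) in TPM and 2.95 ± 0.0553 per coding kilobase. SMC4 was thus above its partner on both scales, as SMC1A was above SMC3. SMC5 had 25.2 and 26.7 and SMC6 40.2 and 43.8. Of the other factors with a role in chromatin loops, MAZ had 560 and 482, YY1 96.6 and 100, LDB1 49.2 and 47.4 and ZNF143 21.8 and 20.5. MAZ and YY1 were above CTCF in both replicates. The libraries differed at SMC4 and MAZ, by 0.14 and -0.18 on the log2 scale, with adjusted p-values of 7.39e-05 and 1.08e-12 by the exact binomial test. With ESCO2, 3 of the 18 tested genes of the list were called, against 3.87% of all genes tested and 6.74% of those with at least 1000 summed counts. SMC1B, RAD21L1 and CTCFL had under 10 summed counts and were not tested.

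**Figure D5:**
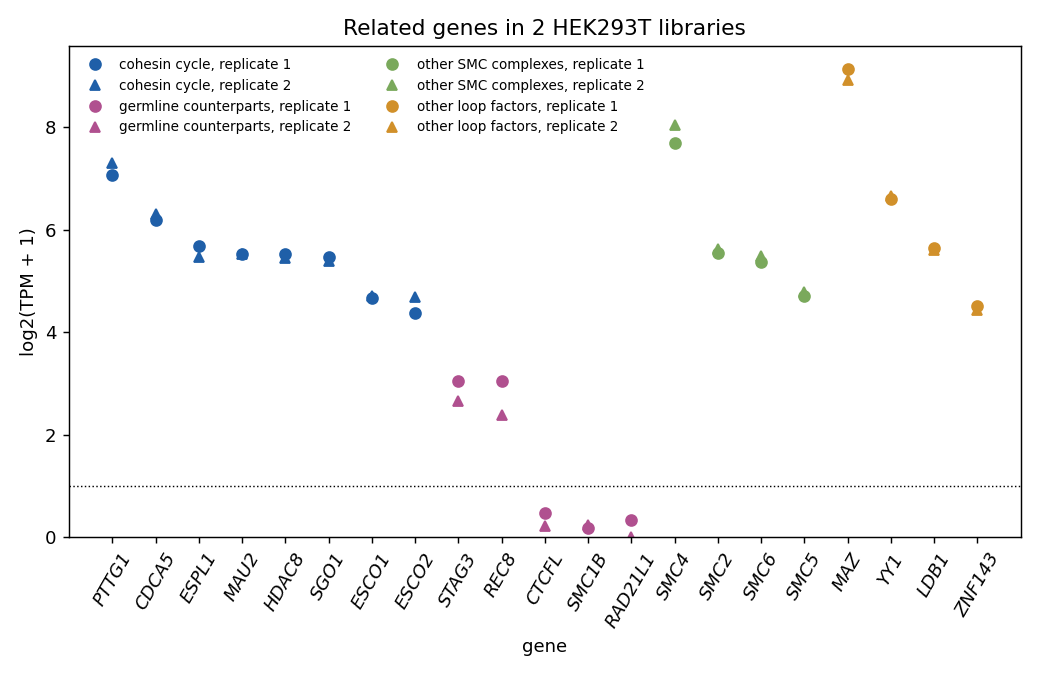
log2(TPM + 1) of the 21 related genes in replicate 1 (circles) and replicate 2 (triangles), by group. The dotted line is a TPM of 1. SMC1B, RAD21L1 and CTCFL lie under it, and MAZ and SMC4 are highest.

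Transcripts that start beside the members or copy them were all below their member in TPM. CTCF-DT had 2 and 4 counts and STAG1-DT 22 and 17. STAG2-AS1 had 3 and 4 counts, a TPM of 1.45 and 2.00, and the pseudogene SMC3P1 had a TPM of 2.06 and 1.98. RAD21-AS1 had 3.19 and 5.46 estimated counts. WAPL-DT had 49 and 23 counts, a TPM of 2.18 and 1.06, beside 37.8 and 37.3 for WAPL.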

How the data were processed

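RNA-Seq was done on 2 libraries of poly(A)+ RNA. Per the submitters' processing notes the authors used Trimmomatic 0.36, STAR 2.6.1c and RSEM 1.3.1 with hg19. The study's methods name featureCounts and Ensembl v.87 genes, while the deposited columns are those of RSEM. Estimated counts as deposited share a read among the genes it fits. TPM values deposited by the authors are scaled by length and library, and the deposited FPKM values, used as an alternative, by length and fragments. Posterior SDs and interval bounds are scores deposited by the authors. The table of pooled reads was not used.

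Genes were named by GENCODE release 44 on GRCh37 (96.1% of rows). Of 83 transcripts listed for the members 78 were matched. Its transcript lengths can differ from the authors', as for CTCF, whose estimated length exceeds the longest one. Words of 50 bases came from those of its transcripts that the deposited values list, and exon overlaps from all of its transcripts. The binomial test (scipy 1.17.1) used rounded estimated counts, TMM factors from edgeR 4.0.16 and genes with at least 10 summed counts. It was tested on simulated data. Named were the members, listed related genes, markers, and copies or overlapping genes. Members and lists were chosen with earlier results of these data known. The libraries form 1 group, so no likeness of pattern was computed. Alternatives were other detection limits, units, pseudocounts, library factors, count filters, length scales and leaving out each replicate.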

Additional observations from a re-analysis of the deposited data

How the results depend on the processing

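No paired analysis was possible because both libraries belong to 1 group. All 10 members were detected under every limit and unit tried and without either replicate. The related genes detected were 17 to 20 of 21. Scales by coding length and by longest transcript were added after the data were seen. With counts not divided by length the ratios were 3.66 for STAG2 to STAG1, 1.92 for PDS5A to PDS5B, 2.72 for SMC1A to SMC3, 1.68 for NIPBL to MAU2 and 1.06 for NIPBL to WAPL. By coding length they were 3.64, 2.07, 2.68, 0.367 and 0.449. By longest annotated transcript they were 3.60 for STAG2 to STAG1, 2.01 for PDS5A to PDS5B, 1.51 for SMC1A to SMC3 and 0.640 for NIPBL to WAPL, and NIPBL to MAU2 stayed within its spread. With posterior mean TPM, NIPBL to MAU2 was 0.709. Without either replicate the ratios, in the same order, were 4.19 to 5.17, 1.15 to 1.35, 3.68 to 4.28, 0.748 to 0.795 and 0.893 to 0.956.

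Neighbours apart in their replicate values numbered 7 to 9 of 9 steps, in a different order of genes on each scale by count or by annotated length. The members called between the libraries were 2 with total counts as library size, SMC1A being the second, and 1 under the other settings. With that library size STAG1 turned from 0.01 to -0.0039 (log2), both near 0. Genes called over the whole table numbered 448 with posterior mean counts, against 694. The median of log2(mean TPM + 1) over the members exceeded that of detected protein-coding genes by 1.40. It was 1.43 with a pseudocount of 0.1, 2.96 above protein-coding genes with no detection limit, and 1.38 to 1.42 without either replicate. Apart from what each scale does by construction, the cause was not tested.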
